A study of Mus musculus with 8 samples.

Results

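Secreted cytokines and chemokines of cultured mouse primary myoblasts, grown from the satellite cells of muscle, are described here as a set of 10 genes: Csf1, Lif, Il6, Il33, Tslp, Cxcl1, Cxcl12, Cxcl14, Ccl2 and Ccl7. They are 10 of 19938 genes with a row of their own on the array. A gene was taken from the rows that the array annotation gives a single symbol, and each of the 10 had 1 such row. The samples were 4 arrays labelled Runx1f/f and 4 labelled WT, numbered 1 to 4 in each label. Both carry the C57bl/6 background and are satellite cell cultures from gastrocnemius muscle of mice aged 2 to 3 weeks, grown on Matrigel in proliferation medium, with 200 ng of RNA labelled per array. Runx1f/f names a Runx1 allele flanked by recombination sites, and the labels also call these cells knockout. The sources used here name no Cre or other agent that would delete the allele. The study looked for the genes that the transcription factor Runx1 controls early in muscle regeneration.

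Cytokines and chemokines are small secreted proteins that act through surface receptors on nearby cells. Members of the interleukin-6 family signal through the shared receptor chain gp130 and the factor STAT3, and chemokines act through G protein-coupled receptors to draw cells along a gradient. After muscle injury, signals of this kind bring in neutrophils and monocytes, support macrophages and regulatory T cells, and act on satellite cells themselves. Several of these genes are induced through NF-kB.

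Values are log2 intensities. They are given for each array, and a difference of 1 is a change of 2-fold. Before any comparison, a property of the deposited values has to be stated. Runx1f/f 1 and 2 had the same mean as Runx1f/f 3 and 4 and as the 4 WT columns, to within 7.5e-05, in each of 35399 rows. The values of Runx1f/f 1 and 2 therefore mirror each other about the mean of a gene, as do those of Runx1f/f 3 and 4, and the 8 arrays do not give 8 independent values. In table order these equal-mean sets hold 4, 2 and 2 columns. The source numbers that the labels attach to the samples, in rising order, also fall into runs of 4, 2 and 2 (139 to 142, 160 to 161, and 181 and 189). If the columns stood in source number order, those headed with replicate numbers 2 and 3 would be the 4 Runx1f/f samples, and the comparison of replicate numbers given here would be the comparison of genotypes. Whether each column holds the sample that its header names was not tested, and columns are called here by their headers. Array medians lay between 4.39 and 4.41, and no 2 arrays were identical. Runx1 itself read 9.98 and 9.89 in Runx1f/f 2 and 3 and 9.99 and 10.27 in WT 2 and 3, against 9.35 and 9.44 in Runx1f/f 1 and 4 and 9.15 and 9.25 in WT 1 and 4. Its level was higher by 0.74 in the columns numbered 2 and 3, without overlap, and did not part the columns by header label. The same doubt about column order bears on it: in source number order these higher columns would be the Runx1f/f samples. The sources used here do not say whether the Runx1 probe set lies in the deleted part.

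The comparison of the labels gave no difference in any of the 10 genes. limma called 0 of 10 members and 0 of 19938 genes, which is 0% (adjusted p under 0.05), and 0 genes had an unadjusted p under 0.05. The largest difference among the members was 5e-06, and every member had an adjusted p of 1. For Il33 the standard error of that difference was 0.58 and for Csf1 it was 0.25, so the spread between arrays was far wider than the difference. The equal column means fix this outcome for every gene, so it does not measure whether loss of Runx1 changes these cytokines. Within the source numbers that the labels attach to the samples, differences between the labels had no common sign, and the equal means force them to cancel. Il33 differed by 0.19 (Runx1f/f minus WT) among numbers 139 to 142, by -0.92 between 160 and 161, and by 0.54 between 181 and 189. Csf1 differed by -0.04, 0.43 and -0.36 in the same order. The last 2 runs hold 1 array per label and allow no test.

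Some of these genes parted the arrays by replicate number. Arrays numbered 2 and 3 were set against arrays numbered 1 and 4 in both labels. This parting of the arrays came from earlier results of the same values, so it is described here without a test. Il33 was higher by 1.30 and Tslp by 0.46 in arrays numbered 2 and 3, and Csf1 differed by -0.56. In these 3 genes the 4 arrays numbered 2 and 3 did not overlap with the 4 numbered 1 and 4. The count is 3 of 10 members, beside 20.4% of all genes, and a share of that size is not a result about the set. Above, the count was 2 of 10 beside 9.87% of all genes, and below it was 1 of 10 beside 10.5%. The median absolute difference was 0.21 over the 10 members and 0.06 over all genes.

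Brightness limits what can be read for most of the set. As a dim set, the 1027 odorant receptor genes on the array, a family of sensory neurons, had a median level of 3.64 and a 95th percentile of 4.22. Csf1, Il33, Cxcl1 and Cxcl12 lay above that 95th percentile on all 8 arrays. The mean levels of the other 6 members lay below it, whereas 52.6% of all genes lay above. Of the 4 bright members, 2 had no overlap between the replicate numbers, beside 30.2% of genes that bright. Probe sets differ in how strongly they respond, so this position says only how bright a probe set was and does not order the genes by amount of RNA. The panels of values by array show the 10 genes with this level as a dotted line.

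**Figure D1:**
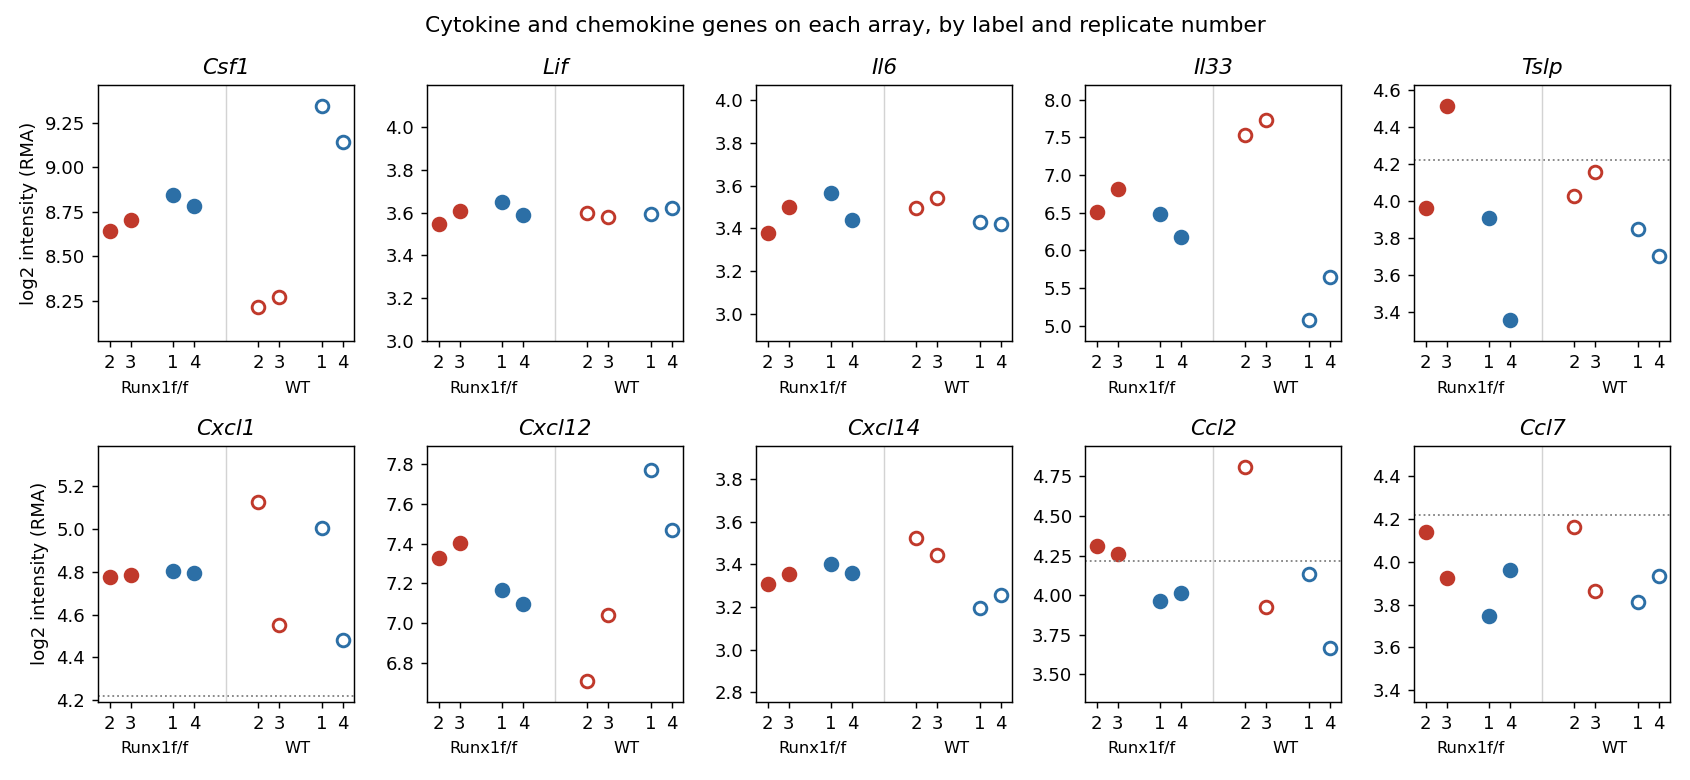
Log2 intensity (y axis, a separate range for each gene) of the 10 genes on each array (x axis, replicate numbers, with arrays labelled Runx1f/f as filled and WT as open points). Numbers 2 and 3 are red and numbers 1 and 4 blue. The dotted line marks 4.22, the 95th percentile of the odorant receptor genes, where it falls in the range. Il33 and Csf1 part the colours in opposite directions, more widely in WT than in Runx1f/f arrays.

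Among the alarmins, proteins released from damaged or stressed cells, Il33 varied most over the arrays. Il33 encodes a nuclear cytokine of the interleukin-1 family that acts through the receptor ST2 and in injured muscle is known to come from fibro-adipogenic progenitors and to expand regulatory T cells. It read 6.51 and 6.81 in Runx1f/f 2 and 3 and 7.53 and 7.73 in WT 2 and 3, against 6.48 and 6.18 in Runx1f/f 1 and 4 and 5.07 and 5.64 in WT 1 and 4. All arrays numbered 2 and 3 were thus above all arrays numbered 1 and 4, but Runx1f/f 2 and Runx1f/f 1 differed by only 0.02. The mean was 7.14 ± 0.58 (SD, n = 4) in arrays numbered 2 and 3 and 5.84 ± 0.62 in arrays numbered 1 and 4, a ratio of 2.46. The difference was 0.33 within arrays labelled Runx1f/f and 2.27 within those labelled WT. From the lowest to the highest array Il33 spanned 2.66, or 6.31-fold, the 66th widest span of 19938 genes. Its difference between the numbers ranked 122nd in size, in the top 0.612% of genes, and 199 genes (0.998%) differed by at least 1.

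Tslp, an alarmin of epithelial and stromal cells that acts on dendritic cells and lymphocytes, was dim. It read 3.96 and 4.51 in Runx1f/f 2 and 3 and 4.03 and 4.15 in WT 2 and 3, against 3.91 and 3.36 in Runx1f/f 1 and 4 and 3.85 and 3.70 in WT 1 and 4. The groups did not overlap, although Runx1f/f 2 and Runx1f/f 1 differed by only 0.05. The mean was 4.16 ± 0.25 in arrays numbered 2 and 3 and 3.70 ± 0.25 in arrays numbered 1 and 4 (SD, n = 4 each). Only Runx1f/f 3 exceeded the 95th percentile of the odorant receptors. The difference was 0.60 within Runx1f/f arrays and 0.32 within WT arrays. Runx1f/f 3 and 4 mirror each other about the mean, so the groups are not independent sets of values. The difference of 0.46 over both labels was 0.34 when Runx1f/f 3 or Runx1f/f 4 was left out.

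Csf1, the growth factor that keeps macrophages alive and dividing, went the other way. It read 8.64 and 8.71 in Runx1f/f 2 and 3 and 8.22 and 8.28 in WT 2 and 3, against 8.84 and 8.78 in Runx1f/f 1 and 4 and 9.34 and 9.14 in WT 1 and 4. Every array numbered 2 or 3 was below every array numbered 1 or 4. The narrowest gap was between Runx1f/f 3 and Runx1f/f 4, which differed by -0.07. The mean was 8.46 ± 0.25 in arrays numbered 2 and 3 and 9.03 ± 0.26 in arrays numbered 1 and 4 (SD, n = 4 each), a ratio of 0.676. Within Runx1f/f arrays the difference was -0.14 and within WT arrays -0.99. The difference ranked 671st in size among all genes, in the top 3.37%.

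The promoters of Il33 and Csf1 are shown because these bright genes parted the arrays in opposite directions. They are RefSeq windows of 300 bases on GRCm38.p6, from 250 before to 50 after a start site, printed 5′ to 3′ on the strand of the gene. Capitals mark matches, on either strand, to TGTGGT (Runx), TGANTCA (AP-1), CAGCTG (an E-box that MyoD binds) and GGGANTT (the start of the NF-kB consensus). Il33 has 2 windows, the first at chr19:29924863-29925162, plus strand and the second at chr19:29945540-29945839, plus strand. The Csf1 window is chr3:107760420-107760719, minus strand.
Il33 first window: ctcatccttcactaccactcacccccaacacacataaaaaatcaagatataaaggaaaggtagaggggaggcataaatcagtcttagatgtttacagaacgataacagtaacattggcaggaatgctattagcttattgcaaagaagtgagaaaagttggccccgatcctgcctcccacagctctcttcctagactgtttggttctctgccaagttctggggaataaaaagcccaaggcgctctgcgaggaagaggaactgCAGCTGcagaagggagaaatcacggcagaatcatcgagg
Il33 second window: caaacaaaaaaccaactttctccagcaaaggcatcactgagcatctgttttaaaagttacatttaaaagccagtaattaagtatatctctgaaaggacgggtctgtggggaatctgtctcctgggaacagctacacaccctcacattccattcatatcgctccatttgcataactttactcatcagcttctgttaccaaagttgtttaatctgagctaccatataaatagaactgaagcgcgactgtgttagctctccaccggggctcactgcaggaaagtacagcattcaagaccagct
Csf1: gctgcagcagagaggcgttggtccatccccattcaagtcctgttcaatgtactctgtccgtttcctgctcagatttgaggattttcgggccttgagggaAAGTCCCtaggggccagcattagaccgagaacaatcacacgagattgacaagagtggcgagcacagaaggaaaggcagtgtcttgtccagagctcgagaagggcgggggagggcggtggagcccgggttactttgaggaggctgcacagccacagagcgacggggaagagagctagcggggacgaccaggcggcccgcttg

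The first Il33 window held 1 E-box match, starting 12 bases into the transcript, and the second held no match to these letters. The Csf1 window held 1 match to the NF-kB letters, starting at -151 from the start site. Neither gene had a Runx or AP-1 match in these windows. Over 32851 promoter windows, 16.8% held the Runx letters, 7.81% the AP-1 letters, 16.3% the E-box and 16.5% the NF-kB letters, so matches of this kind are common. Promoter windows were searched for 7 members, and none was searched for Tslp, Ccl2 and Ccl7. The Lif window held 1 Runx, 1 AP-1 and 1 E-box match, the last 2 directly beside each other, the Il6 window 1 AP-1 and 1 NF-kB match, and the Cxcl1 window 3 NF-kB matches. The windows of Cxcl12 and Cxcl14 held 0 matches to the 4 motifs. A match is a run of letters and does not show that a factor binds there.

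Lif and Il6, the interleukin-6 family members of the set, stayed within the dim range. Lif, which is known to stimulate myoblast proliferation, read 3.55 and 3.61 in Runx1f/f 2 and 3 and 3.60 and 3.58 in WT 2 and 3, against 3.65 and 3.59 in Runx1f/f 1 and 4 and 3.59 and 3.62 in WT 1 and 4. All 8 arrays lay within 0.10 of each other, under the median span of 0.25 over all genes. Il6, an acute-phase cytokine that contracting muscle also releases, read 3.38 and 3.50 in Runx1f/f 2 and 3 and 3.50 and 3.54 in WT 2 and 3, against 3.57 and 3.44 in Runx1f/f 1 and 4 and 3.43 and 3.42 in WT 1 and 4. The arrays overlapped for both genes, and their differences between the numbers were -0.03 and 0.01 (Lif, then Il6).

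Of the CXC chemokines, Cxcl12 and Cxcl1 lay above the dim level, with means of 7.25 and 4.79, and Cxcl14 was dim. The Cxcl1 mean was no higher than that of the odorant receptor Olfr765, also 4.79. Cxcl12 guides cells that carry the receptor Cxcr4, migrating muscle precursors included. It read 7.33 and 7.40 in Runx1f/f 2 and 3 and 6.71 and 7.04 in WT 2 and 3, against 7.17 and 7.09 in Runx1f/f 1 and 4 and 7.77 and 7.47 in WT 1 and 4. The difference between numbers 2 and 3 and numbers 1 and 4 was 0.23 in Runx1f/f arrays and -0.74 in WT arrays, with no overlap within either label. Over both labels the arrays overlapped.

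Cxcl1, a neutrophil attractant that acts through Cxcr2, read 4.78 and 4.79 in Runx1f/f 2 and 3 and 5.13 and 4.55 in WT 2 and 3, against 4.80 and 4.80 in Runx1f/f 1 and 4 and 5.00 and 4.48 in WT 1 and 4. Its 4 Runx1f/f values had an SD of 0.01, whereas the WT values had an SD of 0.32, with WT 2 and WT 1 high and WT 3 and WT 4 low. The number groups overlapped and differed by 0.04. Cxcl14, a chemokine of epithelia and adipose tissue, read 3.31 and 3.35 in Runx1f/f 2 and 3 and 3.52 and 3.45 in WT 2 and 3, against 3.40 and 3.36 in Runx1f/f 1 and 4 and 3.19 and 3.26 in WT 1 and 4. Its difference was -0.05 in Runx1f/f arrays and 0.26 in WT arrays, again with no overlap within a label. Such opposite separation was found in 2 of 10 members, beside 8.31% of all genes.

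The monocyte attractants Ccl2 and Ccl7, which share the receptor Ccr2, were dim and moved in the same direction in both labels without parting the groups. Ccl2 read 4.31 and 4.26 in Runx1f/f 2 and 3 and 4.81 and 3.93 in WT 2 and 3, against 3.96 and 4.01 in Runx1f/f 1 and 4 and 4.14 and 3.67 in WT 1 and 4. Its difference of 0.38 leaned on WT 2, the highest array, and was 0.22 without it. Ccl7 read 4.14 and 3.93 in Runx1f/f 2 and 3 and 4.17 and 3.86 in WT 2 and 3, against 3.75 and 3.96 in Runx1f/f 1 and 4 and 3.81 and 3.93 in WT 1 and 4. Its high arrays were those numbered 2, its arrays numbered 3 and 4 were close to each other, and the difference between the groups was 0.16.

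The members varied in how far the labels shared a pattern. In 6 of 10 members the difference between numbers had the same sign in both labels, against 58.2% of all genes. Within Runx1f/f arrays alone 7 of 10 members showed no overlap, beside 58.3% of all genes, and within WT arrays 6 of 10, beside 47.8%. Il33 and Csf1 had wider differences in WT than in Runx1f/f arrays, and Tslp had a narrower one. Whether a member's differences in the labels differ from each other was not tested. The source numbers move with the replicate numbers: those of arrays numbered 1 and 2 lie between 139 and 142, those of arrays numbered 3 are 160 and 161, and those of arrays numbered 4 are 181 and 189. Within numbers 139 to 142, where both groups occur, number 2 differed from number 1 for Il33 by 0.02 in Runx1f/f and 2.45 in WT arrays. For Csf1 the values were -0.20 and -1.12, and for Tslp 0.05 and 0.18. Numbers 3 and 4 never share a run of source numbers, so there run and replicate number cannot be told apart. These runs follow the headers. If the columns stood in source number order, those headed WT 1 to 4 would be samples 139 to 142. Header label and run could then not be told apart.

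**Figure D2:**
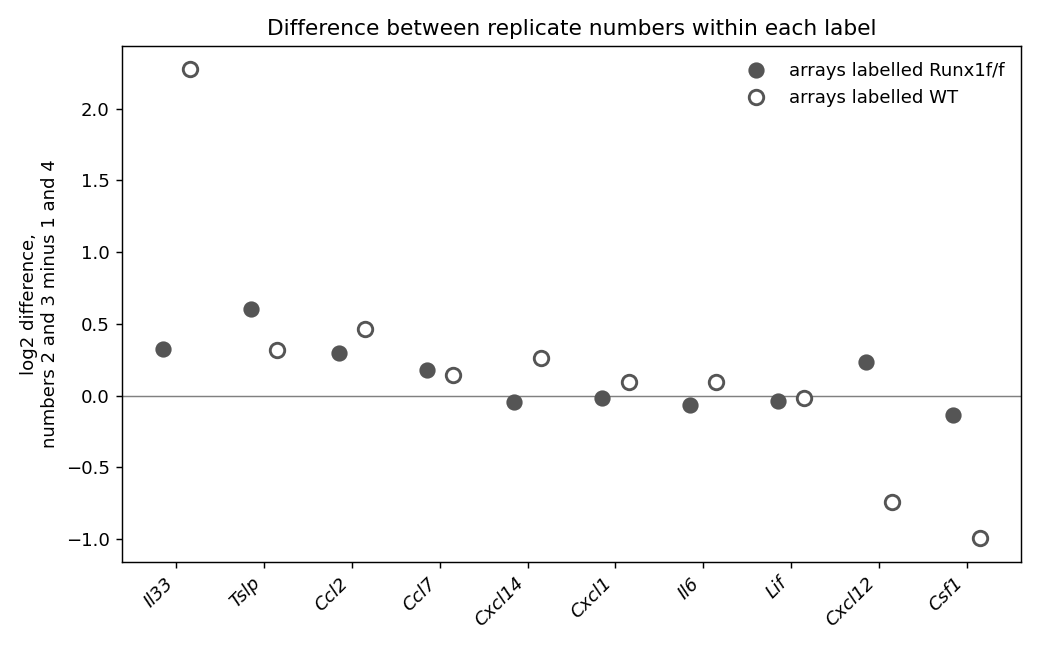
Log2 difference between arrays numbered 2 and 3 and arrays numbered 1 and 4 (y axis) for each member (x axis, by falling difference over both labels), within arrays labelled Runx1f/f (filled) and WT (open). Il33 differed by 0.33 and 2.27 and Csf1 by -0.14 and -0.99, and Cxcl12 lies above 0 in Runx1f/f and below 0 in WT arrays.

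**Figure D3:**
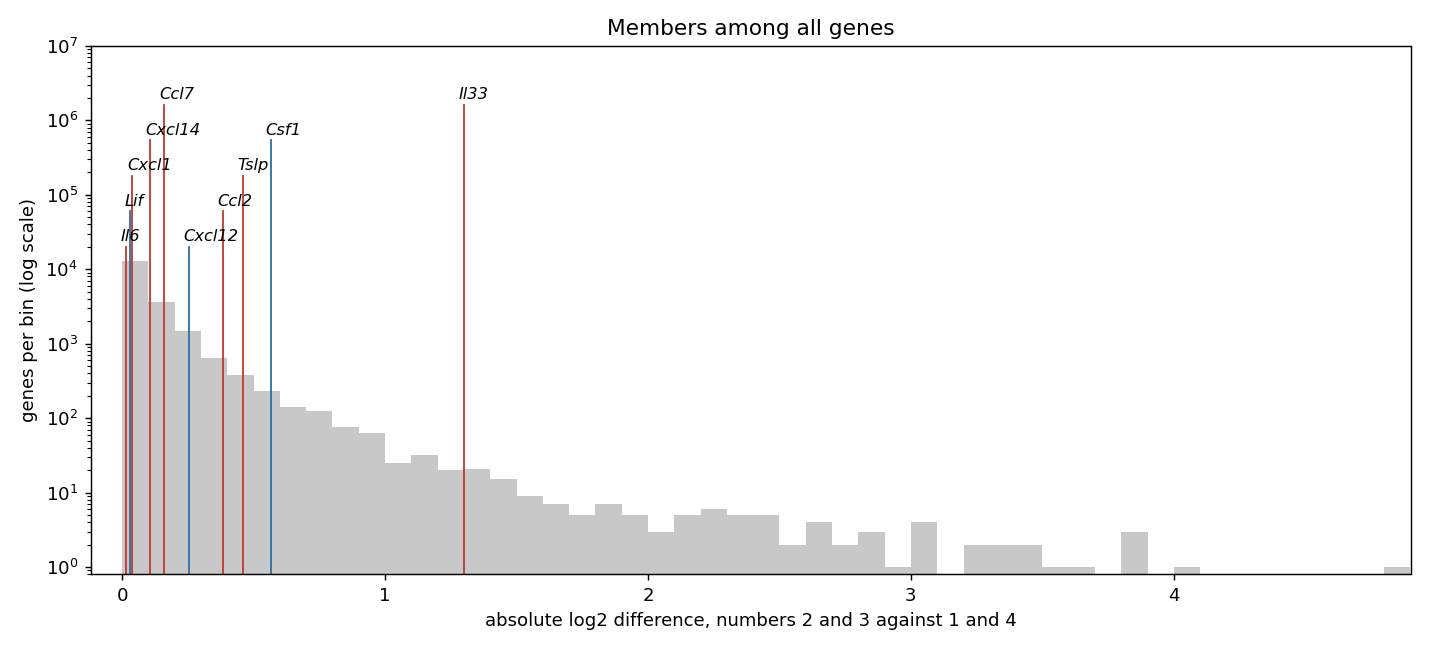
Number of genes (y axis, log scale) by absolute log2 difference between arrays numbered 2 and 3 and arrays numbered 1 and 4 (x axis, bins of 0.1, reaching 4.9), over 19938 genes. Vertical lines mark the 10 members, red where numbers 2 and 3 were higher and blue where they were lower. Il33 stands at 1.30, where few genes lie, and Lif, Il6 and Cxcl1 stand in the tallest bin.

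Of the receptors for these ligands, 16 of 17 listed genes had a row of their own, and 6 were brighter than the 95th percentile of the odorant receptors. The listed gene without such a row was Il1rl1, which encodes ST2, so the Il33 receptor itself was not read. Of the 16, 3 were above and 1 below in arrays numbered 2 and 3 without overlap, near the 20.4% of all genes, so the count is no result about receptors and single genes are given as values. The widest difference was in Il1rap, the accessory chain that ST2 needs to signal for interleukin-33. Il1rap read 5.26 and 5.31 in Runx1f/f 2 and 3 and 5.75 and 5.84 in WT 2 and 3, against 5.01 and 4.96 in Runx1f/f 1 and 4 and 4.41 and 4.53 in WT 1 and 4. It was higher by 0.81 in numbers 2 and 3, on the same arrays as Il33. Il6st, which encodes gp130, was higher by 0.21 around a mean level of 9.35. Cxcr4, the Cxcl12 receptor, had a mean level of 9.52 and differed by -0.03 with overlap over both labels. Like Cxcl12, it differed by 0.35 within Runx1f/f arrays and by -0.40 within WT arrays, without overlap within either label. Such opposite separation was found in 8.31% of all genes. Ackr3, which takes up Cxcl12, differed by -0.18 without overlap. Csf1r, the receptor for Csf1 and a macrophage marker, stayed dim at a mean of 3.57.

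Among 21 other cytokines with a row, 1 was above and 5 were below in arrays numbered 2 and 3 without overlap, beside 9.87% and 10.5% of all genes. All of these were among the 8 cytokines brighter than the dim set. Of genes that bright, 30.2% had no overlap in either direction, and the count was not tested. Tnfsf11, the osteoclast factor RANKL, differed by -0.74, and Il34, the second ligand of the Csf1 receptor, by -0.42. Il34 read 6.70 and 6.79 in Runx1f/f 2 and 3 and 6.68 and 6.66 in WT 2 and 3, against 7.13 and 7.05 in Runx1f/f 1 and 4 and 7.14 and 7.19 in WT 1 and 4. Both Csf1 receptor ligands were therefore lower on the same 4 arrays. Clcf1, a gp130 ligand, was higher by 0.37, and Mif, a broadly expressed cytokine with a mean level of 11.11, differed by -0.22. Among 28 other chemokines, 5 were brighter than the dim set, and 1 was above and 1 below without overlap, beside the same shares of all genes. Cxcl13, a B cell attractant, was higher by 0.44 and read 5.11 and 5.18 in Runx1f/f 2 and 3 and 5.80 and 5.22 in WT 2 and 3, against 5.11 and 5.04 in Runx1f/f 1 and 4 and 4.61 and 4.81 in WT 1 and 4. Ccl24 differed by -0.14 at a dim level, and Ccl25 had a mean of 5.23 and overlapped.

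For the NF-kB and STAT3 genes, 2 of 21 were above and 2 below without overlap, near the 20.4% of all genes. Stat3, which relays gp130 signals, was higher by 0.64 and read 7.88 and 8.06 in Runx1f/f 2 and 3 and 7.77 and 8.06 in WT 2 and 3, against 7.37 and 7.19 in Runx1f/f 1 and 4 and 7.47 and 7.20 in WT 1 and 4. Nfkbiz, an NF-kB regulator, differed by -0.34 and Rela, an NF-kB subunit, by -0.20. Jak1 and Ptpn11, signal enzymes with mean levels of 8.59 and 8.75, overlapped. Over the 5 lists of ligands, receptors and signalling genes, median differences ran between -0.01 and 0.07, beside -0.01 over all genes.

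**Figure D4:**
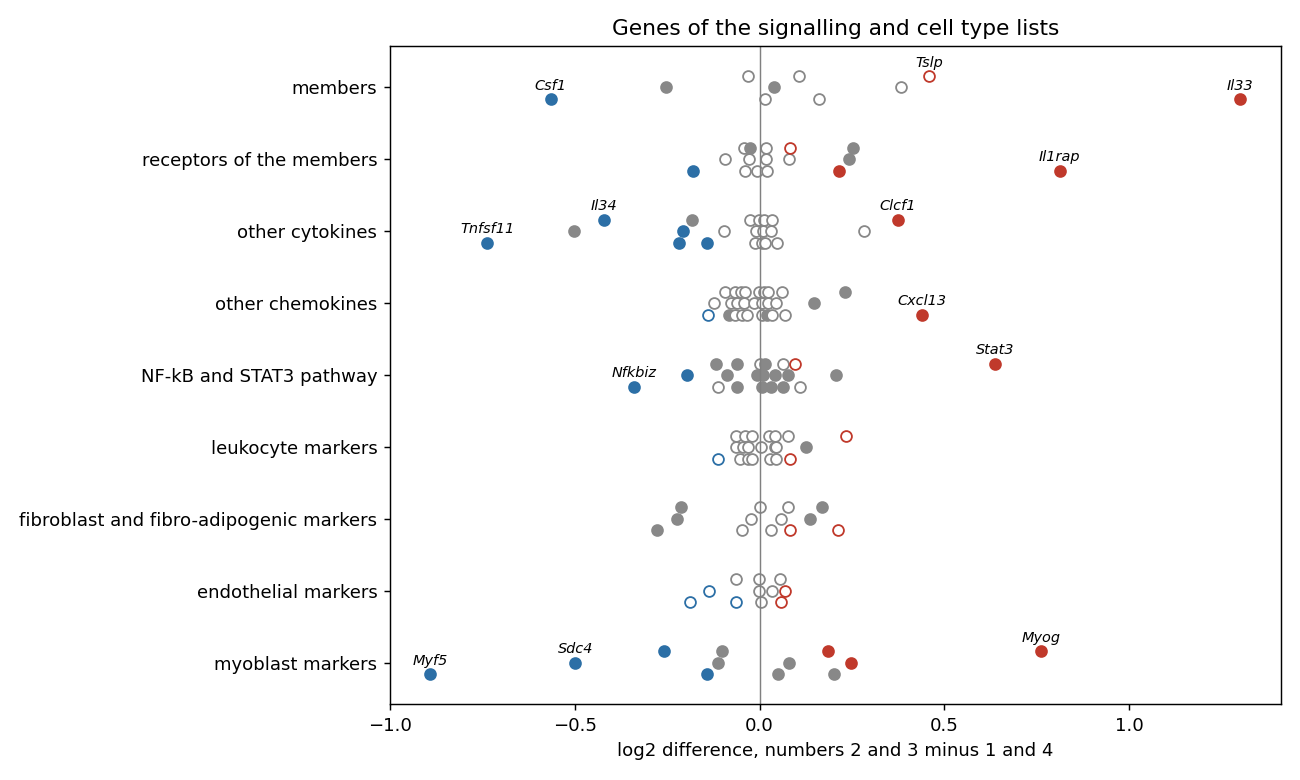
Log2 difference between arrays numbered 2 and 3 and arrays numbered 1 and 4 (x axis) for every measured gene of the members and the other lists (y axis). Red and blue points did not overlap, above and below, grey points overlapped, and open points had a mean under 4.22. Names are given for genes without overlap that differed by at least 0.3. Most leukocyte and endothelial markers are open points near 0, while Il33, Il1rap, Stat3 and Myog lie to the right and Csf1, Il34, Tnfsf11 and Myf5 to the left.

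Marker genes of other cells were read beside these results, since in bulk RNA fewer cells of a type and less RNA per cell cannot be told apart. Of 21 leukocyte markers, 1 exceeded the dim level, Cd68, with a mean of 4.60, and the summed linear signal of the list was 251.3 to 261.8 in arrays numbered 2 and 3 and 246.8 to 254.6 in those numbered 1 and 4. The defining leukocyte marker Ptprc had a mean level of 3.60 and the macrophage marker Adgre1 of 3.63, both in the dim range. Among the leukocyte markers 2 were above without overlap, Itgam by 0.23 and Csf1r by 0.08, and 1 was below, Cd14 with a difference of -0.11, all of them dim. Mrc1, with the next highest mean of 3.93, overlapped. None of the 11 endothelial markers exceeded the dim level, where Egfl7 and Plvap had the highest means, 3.94 and 3.75. Of the 11, 2 were above and 3 below without overlap, with differences of -0.19 in Pecam1, -0.14 in Tek and 0.07 in Tie1. The endothelial sums ran from 129.2 to 132.7 and from 131.0 to 134.6, in the same order of groups. Of 13 fibroblast and fibro-adipogenic markers 5 exceeded the dim level, and 2 dim genes, Cd34 by 0.21 and Pi16 by 0.08, were above without overlap. These shares stand beside 20.4% of all genes, which include the genes above the dim level, where it was 30.2%. The summed signal of the fibroblast list was 1144.1 to 1760.8 in arrays numbered 2 and 3 and 1296.5 to 2026.0 in those numbered 1 and 4, and Col1a2 and Col3a1 had the highest mean levels, 9.77 and 8.90. On the linear scale these collagens supplied most of that sum. The defining progenitor marker Pdgfra was dim, with a mean of 3.49.

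The 12 myoblast markers all exceeded the dim level. In arrays numbered 2 and 3, 3 were above and 4 below without overlap, beside 30.2% of genes that bright, and the other 5 overlapped. Myog, which drives differentiation, was higher by 0.76 in arrays numbered 2 and 3, whereas Myf5, of proliferating myoblasts, differed by -0.89, Sdc4 by -0.50 and Myod1 by -0.26. Chrna1, an acetylcholine receptor subunit with a mean level of 11.72, differed by -0.14. Des and Cdh15 were higher by 0.18 and 0.25 without overlap. Pax7, Itga7, Vcam1, Ncam1 and Chrnd overlapped, with differences of 0.08, -0.11, 0.20, -0.10 and 0.05 in that order. The part that these marker changes have in the values of Il33 and Csf1 was not tested.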

How the data were processed

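RNA of 8 primary myoblast cultures was measured on single-colour Affymetrix MoGene 1.0 ST arrays, per the labels. The deposited values are log2 intensities, 1 per probe set and array. The submitters' processing notes name RMA and Partek with no version, and no label records a later adjustment. RMA subtracts background, equalizes array distributions by quantiles and summarizes probes as log2 values. The number of arrays limits the precision. Nothing beyond the label biological replicate says that cultures came from separate animals, so p-values could speak only for the spread between these samples. The equal column means and mirrored values take even that meaning from the p-values of the label comparison.

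Columns were assigned by the accession in their headers. Of 35399 rows, 21789 had 1 symbol, 1621 several and 11989 none in the platform annotation, and the row with the highest mean represented a gene. The labels were compared with limma 3.58.1 (R 4.3.3, label alone in the model, two-sided, adjusted by Benjamini-Hochberg over all genes, threshold 0.05). It was tested on simulated independent arrays. Those lacked the equal column means and mirrored values of the deposited data, so that test does not bear on the calls here. Replicate numbers were described without a test. Deviations from the label means correlated by 0.24, 0.28, 0.42 and 0.38 for numbers 1 to 4. Only 4 of 8 arrays correlated best with the array of their own number in the other label. The numbers were used as pairs in an alternative, although the labels state no pairing. All 10 members, the other lists and the rules were chosen with earlier results of these data known. In each other list, genes were named for the 2 highest mean levels and for up to 3 of the widest differences without overlap. Other defining markers of other cells (Ptprc, Adgre1, Pdgfra) and the remaining myoblast markers were named besides. Alternatives were blocks for replicate number and source number run, centring, repeated quantile normalization, filters on dim genes, all rows, another variance model, each label alone and each array left out.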

Additional observations from a re-analysis of the deposited data

Results flagged for a closer look

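Cxcl12 and Cxcl14 are given here because numbers 2 and 3 parted from numbers 1 and 4 without overlap within each label, in opposite directions. For Cxcl12 the difference between numbers 2 and 3 and numbers 1 and 4 was 0.23 within Runx1f/f arrays and -0.74 within WT arrays. For Cxcl14, a dim gene, it was -0.0474 within Runx1f/f arrays and 0.26 within WT arrays, and Runx1f/f 3 and Runx1f/f 4 differed by only -0.0034. The difference between the labels was not tested, and 8.31% of all genes met the same description. No array stood far from the others of its label by Dixon's criterion among 20 groups of 4 values. The 10 Runx1f/f groups could not be marked, because their values mirror each other about the mean.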

How the results depend on the processing

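The counts of 0 genes and 0 members called between the labels held under each alternative run: the blocks, centring, repeated quantile normalization, the dim filters, all rows, the other variance model and each array left out. The equal column means fixed most of these counts in advance, so they are no sign of stability. In the fit with a replicate block, 0 genes were called, the Il33 difference was -2.5e-06, and no other call changed. With 1 array left out, limma gave 0 genes at adjusted p under 0.05 and 0 to 27 at an unadjusted p under 0.05, and the Il33 difference ran from -0.47 to 0.41, set by the array left out. The 3 members without overlap between the replicate numbers became 7 with Runx1f/f arrays only (58.3% of all genes) and 6 with WT arrays only (47.8%). With 2 arrays against 2, groups separate more easily. Among Runx1f/f arrays the mirrored values ease this further, since numbers 2 and 3 separate whenever both lie on the same side of the mean. Leaving out 1 array gave 3 to 4, Ccl2 being added without WT 3. Centring and quantile normalization kept 3, and 2 of the 4 members brighter than the odorant receptor level had no overlap, beside 30.2% of genes that bright. Without 1 array, the difference ran from 1.04 to 1.51 for Il33, from 0.34 to 0.53 for Tslp and from -0.65 to -0.46 for Csf1. An alternative within source numbers 139 to 142, as the headers assign them, was added after seeing the data. There the difference was 0.11 for Tslp (0.46 over all arrays), -0.06 for Il6 (0.01) and 0.37 for Ccl7 (0.16). The other 7 members moved by less than their spread. No other probe set of a member could be tried, since each has 1. Brightness limits Lif, Il6, Tslp, Cxcl14, Ccl2 and Ccl7.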

Other observations

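Genes whose pattern over the 8 arrays was most like that of a member were found by the root mean square difference of log2 values after each gene's own mean was subtracted. The 3 members with the widest span were used, and Csf1 was added after its values were seen. Nearest to Il33 were Slc14a1 (0.25), a urea transporter, Egr1 (0.26), an immediate early transcription factor, and Egfr (0.26), the epidermal growth factor receptor. Egr1 read 6.57 and 6.73 in Runx1f/f 2 and 3 and 7.13 and 7.47 in WT 2 and 3, against 6.45 and 6.29 in Runx1f/f 1 and 4 and 5.51 and 5.94 in WT 1 and 4. Nearest to Csf1 were Erc1 (0.05), Boc (0.06), a Hedgehog co-receptor that promotes myogenesis, and Cldn12 (0.06), a claudin. Boc read 4.33 and 4.45 in Runx1f/f 2 and 3 and 3.91 and 4.09 in WT 2 and 3, against 4.57 and 4.46 in Runx1f/f 1 and 4 and 4.94 and 4.87 in WT 1 and 4. Nearest to Tslp were Lgi1 (0.04), Ccn2 (0.06), a matricellular protein gene, and F2r (0.06), the thrombin receptor. F2r, a bright gene with a mean level of 9.04, spanned 1.15 over the arrays, as did the dim Tslp. Nearest to Ccl2 were Glis1 (0.12) and the odorant receptors Olfr316 (0.12) and Olfr765 (0.13), so genes of the dim set shared its high value in WT 2.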
